A study of Mus musculus with 4 samples.

Results

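Dendritic cells that have been activated, or have matured in tissue without infection, switch on a shared set of genes, gain the chemokine receptor CCR7 and move toward T cell zones. The set joins genes for an actin-rich, mobile cell body, for contact with T cells, and for restraining T cells and the dendritic cell's own cytokine signals. Of its genes, 10 were examined here, a list chosen with earlier results of these data known. They were Fscn1, Marcksl1, Cacnb3, Cd83, Cd200, Il4i1, Socs2, Stat4, Samsn1 and Apol7c. Each matched 1 Ensembl identifier among the 17300 genes of the table, so 10 of 10 were found, and all 10 passed the filter on low values.

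The data are total RNA of dendritic cells sorted by flow cytometry from mouse spleen, in 2 KO libraries and 2 WT libraries. The labels give the genotype as KO or WT and no strain, age, sex or treatment, and they do not say which gene is lost, how, or whether libraries of a group came from separate animals. The series title concerns Siglec-E, an inhibitory receptor for sialic acid, and its gene Siglece stood, in log2 units, at 8.92 (A) and 8.96 (B) in KO, against 10.38 and 10.14 in WT 1 and WT 2. It fell by 1.32 (limma adjusted p = 0.0138). Its KO mean of 8.94 alone would not have passed the filter on low values, so it was tested through its WT values. The comparison of KO with WT therefore asks which genes differ in splenic dendritic cells that lack most Siglece RNA. KO columns and KO sample titles are numbered differently, so a KO column is known by its genotype only; the pair is called KO A and KO B (A and B for short). Every column name starts with Allo, a word that no label defines.

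Values are the authors' variance-stabilized values on a log2 scale, already scaled between libraries. Low values are compressed on that scale, so normalized counts obtained by undoing the transform are given beside them. They summed to between 29002408 and 30952251 per library after the authors' scaling, which leaves the depth in reads unknown. All 10 conventional dendritic cell markers examined were present, from Irf4, above 69.8% of tested genes per kilobase of exon, to Cd74, above 99.9%. Neutrophil markers were present too, from Ly6g, above 68.9%, to S100a9, also above 99.9%. The summed normalized counts of 8 neutrophil markers were 166022 to 178442 in KO, against 154808 in WT 1 and 55841 in WT 2. For the 10 conventional dendritic cell markers the sums were larger, at 330079 to 359838 in KO and 457488 to 471783 in WT. Y-linked RNA was scarce in KO A alone, with Ddx3y at 8.74 (A) and 12.13 (B) in KO, against 11.82 and 11.97 in WT 1 and WT 2. With 2 libraries a group, each p-value reflects the spread among these samples alone. The KO libraries differ in Y-linked RNA, so they are not repeats of the same RNA sample. The spread between the WT libraries is possibly technical. An exact two-sided permutation test of a single gene cannot go below 0.333.

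One of the 10 genes, Il4i1, fell in KO and 0 rose. Il4i1 was at 0.504 of its WT level in normalized counts. Fscn1, Marcksl1, Socs2 and Apol7c also had both KO libraries below both WT libraries, without passing the test over all genes, and Cd83, Cd200 and Cacnb3 had overlapping groups. Stat4 and Samsn1 had both KO libraries above both WT libraries, again without passing. Over all 11864 genes tested with limma, 2.23% were called lower and 4.69% higher at an adjusted p of 0.05 (265 and 557 genes; with quantile normalization 282 and 366). At an unadjusted p of 0.05, 5 of the 10 were lower and 0 higher, against 10.5% lower and 14.2% higher over all tested genes. As the 10 were chosen with earlier results known, such comparisons with all genes describe them and test nothing. Calls needed both KO libraries: without KO A limma called 0 genes of the whole table, and without KO B it called 3, the Y-linked genes Kdm5d, Ddx3y and Eif2s3y, named after their values were seen. From bulk RNA, fewer mature cells and less of these RNAs per cell cannot be told apart. Libraries that do not overlap are common here: 28.2% of all tested genes had both KO values below both WT values, as had 5 of these 10, and 28.1% had both above, as had 2. The median difference of the 10 was -0.32 log2 units, against 0.00 over all tested genes.

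The regulatory DNA before the start sites is shown for the members with both KO libraries below both WT libraries, as the stretch where a shared regulator could be sought. RefSeq promoter windows on GRCm38.p6 were matched for 8 of the 10 genes, all but Cd83 and Socs2. Of each window the 250 bases before the start were read 5′ to 3′ on the gene's strand. Capitals mark matches, on either strand, to the broad NF-kB pattern (GGG, any 5 bases, CC) or to the PU.1 pattern GAGGAAGT, and where NF-kB matches overlap they run together.
Il4i1, chr7:44836038-44836287, plus strand: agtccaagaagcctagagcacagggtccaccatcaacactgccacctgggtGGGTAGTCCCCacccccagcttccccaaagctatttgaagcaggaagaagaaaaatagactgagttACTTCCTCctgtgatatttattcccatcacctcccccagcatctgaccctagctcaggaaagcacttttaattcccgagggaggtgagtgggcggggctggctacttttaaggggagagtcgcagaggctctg
Fscn1, chr5:142960105-142960354, plus strand: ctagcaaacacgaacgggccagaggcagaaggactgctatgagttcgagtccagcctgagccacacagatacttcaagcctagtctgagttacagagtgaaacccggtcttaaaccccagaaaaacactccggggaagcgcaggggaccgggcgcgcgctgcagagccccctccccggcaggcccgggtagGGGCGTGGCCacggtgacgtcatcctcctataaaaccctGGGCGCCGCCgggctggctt
Marcksl1, chr4:129513331-129513580, plus strand: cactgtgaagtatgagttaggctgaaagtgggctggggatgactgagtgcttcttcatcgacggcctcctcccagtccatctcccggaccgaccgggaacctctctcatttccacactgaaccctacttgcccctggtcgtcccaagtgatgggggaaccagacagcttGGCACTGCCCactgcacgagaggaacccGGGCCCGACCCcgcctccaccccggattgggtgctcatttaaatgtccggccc
Apol7c, chr15:77533316-77533565, minus strand: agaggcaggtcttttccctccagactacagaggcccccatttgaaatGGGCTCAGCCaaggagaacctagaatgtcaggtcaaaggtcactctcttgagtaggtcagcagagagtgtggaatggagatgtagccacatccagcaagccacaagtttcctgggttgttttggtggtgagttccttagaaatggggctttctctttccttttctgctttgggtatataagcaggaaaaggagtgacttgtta
The broad NF-kB pattern was found in 6 of the 8 genes, among them all 4 printed. The others were Cacnb3, with overlapping groups, and Stat4, with both KO libraries above both WT libraries. By window it was in 7 of 10 (70.0%), but it is also in 45.8% of the 32851 windows of all genes. The PU.1 pattern, the site of a lineage factor of myeloid cells, was in Il4i1 and Samsn1. These were 2 of the 10 windows, against 2.44% of all windows. In Il4i1 it began 133 bases before the start, as ACTTCCTC on the printed strand. The stricter NF-kB consensus, the AP-1 pattern TGANTCA and the STAT pattern TTCNNNGAA were in 0 of the 10 windows of these 8 genes and in 3.90%, 6.75% and 7.02% of all windows. Among 45 other genes of the mature programme with windows, 8 held the stricter NF-kB consensus: Bcl2l1, Ebi3, H2-M2, Il6, Nfkb2, Nfkbie, Pdcd1lg2 and Rel. A match of letters is a description and shows neither binding nor its absence. The motifs were chosen with these sequences in view.

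**Figure D1:**
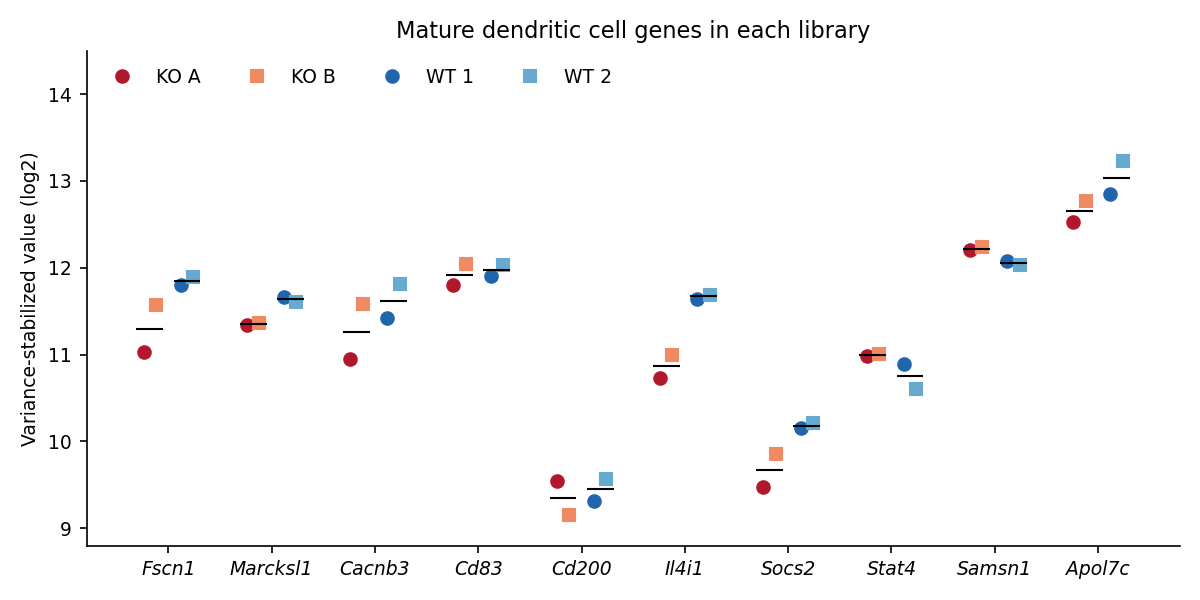
Variance-stabilized value (log2, y axis) of the 10 genes in each library, KO left of WT for each gene, with a bar at each group mean of 2 libraries. Il4i1 stands at 10.73 and 11.00 in KO, below 11.64 and 11.69 in WT, while Cd83, Cd200 and Cacnb3 have overlapping groups.

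The cell-body genes differed in how far their libraries spread. Fscn1 (ENSMUSG00000029581) encodes fascin, which bundles actin into the long processes of mature dendritic cells. It was at 11.03 (A) and 11.57 (B) in KO, against 11.80 and 11.90 in WT 1 and WT 2, or 1597 and 2534 normalized counts against 3057 and 3325. Both KO libraries were below both WT libraries, with KO A well below KO B. The difference was -0.55 (SE 0.171, 95% interval -0.96 to -0.14) and did not pass in limma (adjusted p = 0.110). It shrank to -0.28 without KO A and grew to -0.82 without KO B. Of its relatives, the eye gene Fscn2 was too low to be tested, at 8.72 and 8.42 in KO and 8.39 and 8.45 in WT.

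Marcksl1 (ENSMUSG00000047945) encodes a membrane-bound protein kinase C substrate that binds actin and calmodulin. It was at 11.34 and 11.37 in KO, against 11.66 and 11.61 in WT, and its libraries agreed closely within each group. The difference of -0.28 (SE 0.0803, 95% interval -0.48 to -0.09) did not pass in limma (adjusted p = 0.0903). In counts KO was at 0.790 of WT. Its larger relative Marcks had a difference of -0.17 (95% interval -0.39 to 0.05).

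Cacnb3 (ENSMUSG00000003352), the beta 3 subunit of voltage-gated calcium channels, was at 10.95 (A) and 11.58 (B) in KO, against 11.42 and 11.81 in WT 1 and WT 2. The gap of 0.63 between the KO libraries was wider than the difference between groups, which was -0.35 (95% interval -0.88 to 0.18, limma adjusted p = 0.383). The other beta subunits were much lower: Cacnb1 at 9.44 and 9.29 in KO and 9.53 and 9.64 in WT, and Cacnb2 at 9.27 and 9.06 in KO and 9.10 and 8.89 in WT. Cacnb4 was below the filter, with 22.8 and 32.1 normalized counts in KO and 350 and 136 in WT. With no filter on low values, its difference of -0.84 had a limma adjusted p of 0.0408.

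Neither of the surface molecules passed the test, and both had overlapping groups. Cd83 (ENSMUSG00000015396), which keeps MHC class II and CD86 on the cell surface, was at 11.80 and 12.04 in KO, against 11.91 and 12.03 in WT. The difference of -0.05 had a 95% interval of -0.31 to 0.21 (limma adjusted p = 0.823). Cd200 (ENSMUSG00000022661), a ligand that restrains myeloid cells through the CD200 receptor, was low, with 314 and 165 normalized counts in KO and 223 and 326 in WT. KO A and KO B lay on either side of WT 1. The difference of -0.10 had a 95% interval of -0.47 to 0.27 (limma adjusted p = 0.741). The receptor gene Cd200r1 was at 9.91 and 9.85 in KO and 9.86 and 9.88 in WT, all within 0.1 of each other, and Cd200r3 at 9.24 and 9.86 in KO and 9.04 and 9.23 in WT (limma adjusted p = 0.258). Cd200r2 and Cd200r4 were below the filter, between 8.87 and 9.07 in all libraries.

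Il4i1 (ENSMUSG00000074141) encodes a secreted oxidase of aromatic amino acids that restrains T cells. It had 1218 (A) and 1555 (B) normalized counts in KO, against 2687 and 2809 in WT. On the log2 scale it was at 10.73 and 11.00 in KO and 11.64 and 11.69 in WT, and the gap between groups was larger than either gap within a group. It fell by 0.80 (SE 0.110, 95% interval -1.06 to -0.54, limma adjusted p = 0.0199). Without KO A the adjusted p was 0.0619 and without KO B 0.0851, with differences of -0.67 and -0.93.

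In GENCODE M21, exons of Il4i1 overlap those of Nup62, a nuclear pore gene on the same strand, and those of Atf5 and Tbc1d17 on the other strand. Only 1.61% of the 31-base words of the Il4i1 transcripts were shared with Nup62. Nup62 itself was at 10.62 and 10.82 in KO and 10.74 and 10.92 in WT, with overlapping groups (limma adjusted p = 0.586). Tbc1d17 differed by -0.13 (limma adjusted p = 0.378), and Atf5 was below the filter. The 2 genes nearest to Il4i1 in pattern over the 4 libraries were Plxnc1, a semaphorin receptor (distance 0.0809), and Cdhr3, a cadherin-related gene (0.0848). The measure was the Euclidean distance between deviations from each gene's own mean, in log2 units. Plxnc1 was at 12.87 and 13.11 in KO, against 13.77 and 13.91 in WT, and Cdhr3 at 8.55 and 8.83 in KO, against 9.48 and 9.43 in WT. Both were lower in KO (limma adjusted p = 0.0183 and 0.0213), as their choice by likeness to Il4i1 fixed beforehand. Cdhr3 had 33.8 and 81.3 normalized counts in KO, and its KO mean of 8.69 alone would not have passed the filter.

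Most conventional dendritic cell markers were, like Il4i1, lower in KO than in WT. Of 10 conventional dendritic cell markers 7 fell and 0 rose (8 lower and 0 higher at an unadjusted p of 0.05), with a median of -0.60, and their summed normalized counts were 330079 to 359838 in KO, against 457488 to 471783 in WT. None was at 0. Markers of other cells were higher in KO in part: 4 of 8 macrophage, 3 of 7 monocyte, 3 of 4 basophil and mast cell, 3 of 7 erythroid, 2 of 5 T cell and 1 of 8 neutrophil markers rose and 0 fell. At an unadjusted p of 0.05 the higher ones were 6, 5, 4, 7, 2 and 3. Erythroid sums were 28301 and 41263 normalized counts in KO, against 2093 in WT 1 and 11516 in WT 2. Of 8 B cell markers 0 were called in limma (1 lower and 0 higher at an unadjusted p of 0.05). The part of these shifts in the Il4i1 result was not tested.

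**Figure D2:**
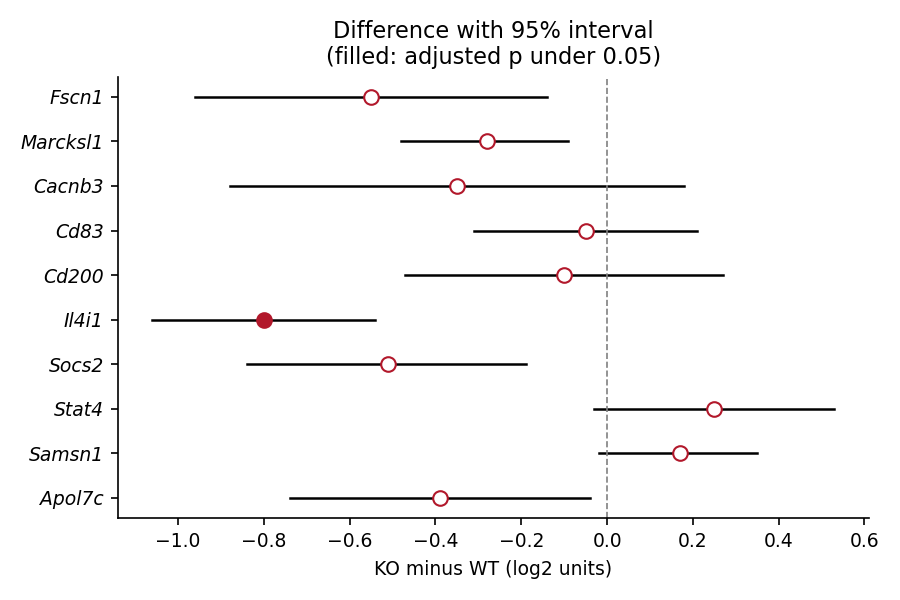
KO minus WT in log2 units (x axis) for the 10 genes, with the 95% interval from limma; the filled point passed an adjusted p of 0.05. Il4i1, at -0.80, is the 1 filled point, and the intervals of Cd83, Cd200, Cacnb3, Stat4 and Samsn1 include 0.

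The signalling genes were split. Socs2 (ENSMUSG00000020027), an inhibitor of cytokine and growth hormone receptor signals, had 288 and 477 normalized counts in KO, against 677 and 717 in WT. Both KO libraries were below both WT libraries, and KO A was the lowest. The log2 difference was -0.51 (SE 0.135, 95% interval -0.84 to -0.19, limma adjusted p = 0.0755), and KO was at 0.549 of WT in counts. It was -0.33 without KO A and -0.70 without KO B.

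Another SOCS gene went the other way. Socs3, which inhibits gp130 receptors, was at 11.67 and 11.82 in KO, against 10.64 and 11.03 in WT, and rose by 0.91 (95% interval 0.58 to 1.25, limma adjusted p = 0.0233). Of 12 immediate early genes, a class switched on within minutes by many stimuli, 9 rose and 0 fell in the same libraries (12 higher and 0 lower at an unadjusted p of 0.05), with a median of 2.08. Egr1 rose by 2.36, Ier2 by 1.50, Nr4a1 by 1.62 and Junb by 1.30 (limma adjusted p = 0.0147, 0.0147, 0.0173 and 0.0182). Their summed normalized counts were 133970 to 154899 in KO, against 20316 to 52886 in WT. Egr2, among those called, had a WT mean of 8.76, which alone would not have passed the filter. The part of the immediate early shift in the values of Socs3 was not tested. Socs4, Socs5, Socs6 and Socs7 differed by between -0.15 and 0.04 and did not pass, and Socs1 and Cish were below the filter.

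Stat4 (ENSMUSG00000062939), which carries the interleukin 12 signal, was at 10.98 and 11.01 in KO, against 10.89 and 10.60 in WT. Both KO libraries were above both WT libraries, by little over WT 1. The difference of 0.25 (SE 0.116, 95% interval -0.03 to 0.53) did not pass in limma (adjusted p = 0.245), and was 0.39 without WT 1 and 0.10 without WT 2. NK cells also use Stat4, and 8 of 10 NK markers rose and 0 fell (9 higher and 0 lower at an unadjusted p of 0.05), with summed normalized counts of 18909 to 23159 in KO, against 9672 to 10131 in WT. None was at 0. The WT mean of the NK marker Xcl1, at 8.95, alone would not have passed the filter. The part of NK cell RNA in the Stat4 values was not tested. Of related STAT genes, Stat2, Stat3, Stat5a, Stat5b and Stat6 differed by between -0.24 (Stat2) and 0.14 (Stat6), and 0 of these 5 were called in limma (0 at an unadjusted p under 0.05). In GENCODE M21, 23.7% of the 31-base words of Stat4 transcripts are shared with Gm28177, a gene model on the same strand that has no value here.

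Samsn1 (ENSMUSG00000022876), an adaptor that restrains B cell receptor signalling, was the steadiest member, at 12.21 and 12.24 in KO, against 12.08 and 12.03 in WT. The difference of 0.17 (95% interval -0.02 to 0.35) did not pass in limma (adjusted p = 0.245). Of its relatives, Sash3 differed by 0.01 and Sash1 by -0.63 (95% interval -1.02 to -0.23, limma adjusted p = 0.0725).

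Apol7c (ENSMUSG00000044309), an apolipoprotein L linked to cross-presentation by dendritic cells, had 5407 and 6476 normalized counts in KO, against 6889 and 9082 in WT. KO B and WT 1 were close, and WT 2 was the highest. The log2 difference was -0.39 (SE 0.145, 95% interval -0.74 to -0.04, limma adjusted p = 0.161). Without WT 1 it was -0.58 with an adjusted p of 0.0423, and without WT 2 it was -0.20 with an adjusted p of 0.482. Of its 31-base words 38.1% occur in transcripts of other genes, chiefly Gm8221, Apol7a and Apol7e, so reads could have been split between copies and the value is uncertain.

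Another gene of the apolipoprotein L family rose. Apol8 was at 9.66 and 9.69 in KO, against 8.31 and 8.83 in WT, or 367 and 385 normalized counts against 9.19 and 81.6. It rose by 1.11 (95% interval 0.71 to 1.50, limma adjusted p = 0.0227). Its WT mean of 8.57 alone would not have passed the filter, so it was tested through its KO values. Apol11b was at 10.50 and 11.21 in KO, against 8.87 and 9.90 in WT (difference 1.47, limma adjusted p = 0.0596). Apol7e differed by 0.32 and Apol10b by -0.14, and neither passed. Apol6, Apol7a, Apol7b, Apol9a, Apol10a and Apol11a were below the filter. With no filter on low values, Apol7b and Apol10a differed by 0.37 and 0.44 (limma adjusted p = 0.045 and 0.0419). Apol6, Apol7a, Apol9a and Apol11a did not pass there. Apol7a and Apol7e share words with Apol7c, as given above. How far these genes otherwise share sequence with other copies was not tested.

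Per kilobase of exon the members covered a wide range of levels. Mean normalized counts per kilobase over the 4 libraries were 3380 for Apol7c, 1494 for Marcksl1, 1337 for Cd83, 873 for Fscn1 and 813 for Samsn1. They were 585 for Cacnb3, 507 for Il4i1, 360 for Stat4, 77.4 for Cd200 and 56.6 for Socs2. Apol7c lay above 97.4% of tested genes and Socs2 above 11.0%. The ranges over the 4 libraries overlapped for Marcksl1 and Cd83, for each step from Fscn1 down to Stat4, and for Cd200 and Socs2, so these neighbours are not ordered beyond their spread. The exons of Socs2 span 9531 bases over all its annotated transcripts, and values are divided by that length.

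The rest of the programme was read from 64 other genes in 7 lists by role, also chosen with earlier results known. Of these, 62 were in the table and 56 were tested, of which 8 fell, 2 rose and 46 were not called. Over all tested genes 2.23% were called lower and 4.69% higher. At an unadjusted p of 0.05, 22 of the 56 were lower and 2 higher, beside the 10.5% and 14.2% of all tested genes. Without KO A, and likewise without KO B, limma called 0 of the 56 (19 and 26 at an unadjusted p of 0.05). The median difference was -0.21, against 0.00 for all tested genes. Both KO values were below both WT values in 32 of the 56 and above them in 6. Over all tested genes these shares were 28.2% and 28.1%.

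Ccr7, the chemokine receptor by which these cells are recognised, did not pass the test. It was at 10.70 (A) and 11.23 (B) in KO, against 10.70 and 10.97 in WT 1 and WT 2 (difference 0.13, 95% interval -0.31 to 0.57, limma adjusted p = 0.710). Its sign depended on the library left out, from -0.13 without KO B to 0.39 without KO A. Of the 4 chemokine genes tested, Ccr7 among them, 1 rose and 0 fell (1 higher and 2 lower at an unadjusted p of 0.05). Ccl22 and Cxcl16, which were picked with their values in view, differed by -0.33 and -0.31, with both KO values below both WT values. The gene that rose was Ccl5, a chemokine also made by NK and T cells. It was at 12.15 and 12.50 in KO, against 11.66 and 11.72 in WT, and rose by 0.63 (limma adjusted p = 0.0374; 0.0563 with quantile normalization and 0.0539 without WT 1). The NK markers given above for Stat4 were higher in the same libraries, and their part in the Ccl5 result was not tested.

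Co-stimulatory ligands and receptors gave the lowest median of the programme lists, at -0.54. Of 5 tested, 3 fell, 0 rose and 2 were not called (3 lower and 0 higher at an unadjusted p of 0.05). Icosl, the ligand of ICOS, was at 11.85 and 12.12 in KO, against 12.81 and 12.71 in WT, and fell by 0.78 (limma adjusted p = 0.0202). Cd40, the receptor for T cell help, was at 10.64 and 10.63 in KO, against 11.36 and 11.29 in WT, and fell by 0.69 (limma adjusted p = 0.0162). Cd80, a ligand of CD28, had 515 and 626 normalized counts in KO, against 1129 and 907 in WT, and fell by 0.54 (limma adjusted p = 0.0453; 0.0531 with quantile normalization and 0.120 without WT 1).

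Among 10 NF-kB and survival genes 2 fell, 1 rose and 7 were not called. Relb, the subunit that drives dendritic cell maturation, was at 11.67 and 11.86 in KO, against 12.44 and 12.50 in WT, and fell by 0.71 (limma adjusted p = 0.0191). Traf1, an adaptor of TNF receptors, was at 12.45 and 12.56 in KO, against 13.07 and 13.14 in WT, and fell by 0.60 (limma adjusted p = 0.0199). Bcl2l1, which protects against apoptosis, was at 10.49 and 10.58 in KO, against 9.89 and 10.06 in WT, and rose by 0.56 (limma adjusted p = 0.0322; 0.0778 without WT 1). The 7 others differed by between -0.26 and 0.04.

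Of 20 other markers of mature dendritic cells 3 fell, 0 rose and 17 were not called (10 lower and 0 higher at an unadjusted p of 0.05). Mreg, or melanoregulin, which acts in organelle transport, was at 10.38 and 10.63 in KO, against 11.16 and 11.03 in WT, and fell by 0.59 (limma adjusted p = 0.0366; 0.0728 without WT 1). The tetraspanin Tspan3 was at 10.71 and 10.83 in KO, against 11.18 and 11.24 in WT, and fell by 0.44 (limma adjusted p = 0.0404; 0.0740 to 0.132 when any library was left out). Tmem123, a membrane protein, was at 12.38 and 12.53 in KO, against 12.82 and 12.89 in WT. It fell by 0.40 (limma adjusted p = 0.0482). The limma adjusted p was 0.0532 with no filter on low values, 0.0558 with no intensity trend and 0.0539 with log2 of the count plus 1. Tmem123 did not pass when any library was left out, with differences of -0.47 to -0.33.

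The remaining lists held 0 calls among their tested genes. The cytokine gene Il6 was below the filter, with 121 and 122 normalized counts in KO and 8.79 and 41.8 in WT. With no filter on low values, its difference of 0.55 had a limma adjusted p of 0.0393. In that setting 3 other programme genes were called higher and 7 lower. Tested in these lists were 8 genes of the cytoskeleton and movement (2 lower and 0 higher at an unadjusted p of 0.05), 6 brakes on T cells and cytokine receptors (1 and 0) and 3 cytokines (0 and 0). Their medians were -0.19, 0.06 and 0.06.

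**Figure D3:**
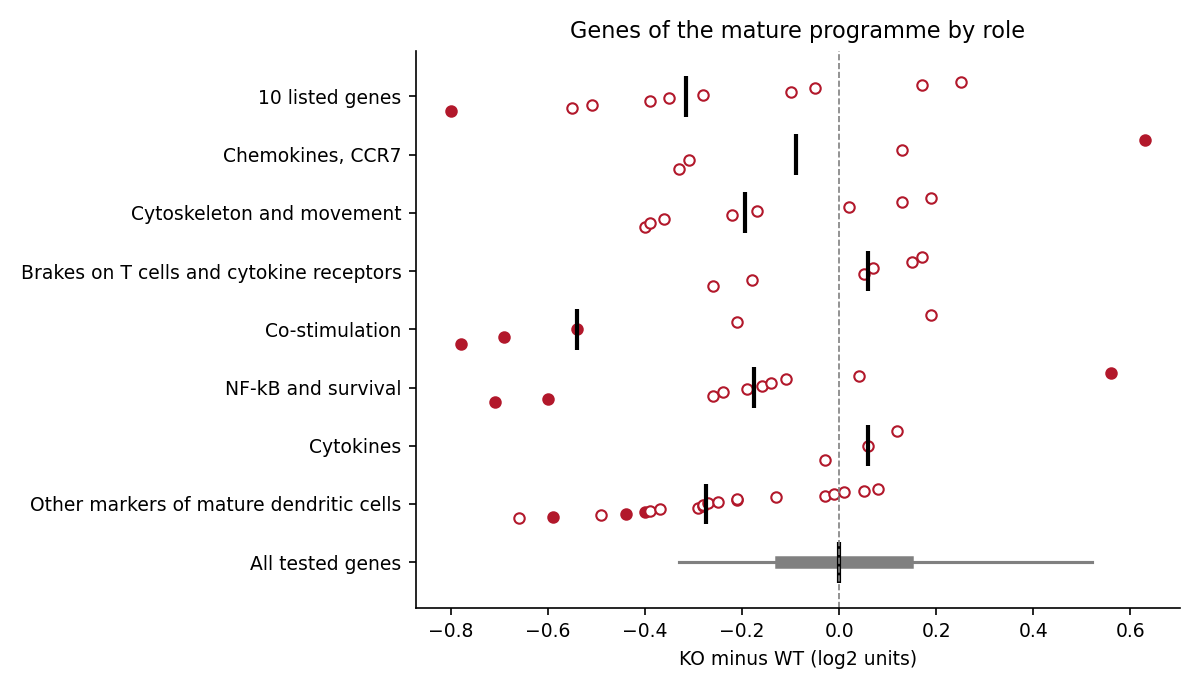
KO minus WT in log2 units (x axis) for each tested gene of the mature programme by list; filled points passed a limma adjusted p of 0.05 and black bars are medians. For all tested genes the grey box spans the 25th to 75th percentile and the line the 5th to 95th. The co-stimulation list has the lowest median, at -0.54, and the 10 listed genes stand at -0.32.

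Within the KO group the mature genes were not at 1 level. Of the 10 listed genes 9 were lower in KO A than in KO B, as were 43 of the 56 other programme genes tested and 5888 of all 11864 tested genes (90.0%, 76.8% and 49.6%). The gap was -0.63 for Cacnb3, -0.54 for Fscn1 and -0.37 for Socs2, and it was -0.52 for Ccr7. Only Cd200 was higher in KO A, by 0.39. Between the WT libraries 7 of the 10 were lower in WT 1, as were 36 of the 56 and 6347 of all tested genes (70.0%, 64.3% and 53.5%).

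Plasmacytoid markers ran the other way between the KO libraries. All 7, among them the receptor Siglech, with values of 13.44 (A) and 12.39 (B), were higher in KO A, by a median of 0.77. Their summed normalized counts were 16820 to 32569 in KO, against 17134 to 21886 in WT, none was at 0, and 0 of the 7 were called between KO and WT (0 at an unadjusted p of 0.05). Some lists were lower in KO A, as the mature genes were: 8 of 8 B cell markers (median -0.44), 8 of 8 macrophage (-0.36) and 7 of 7 erythroid (-0.45). So were 9 of 10 NK markers (-0.22) and 4 of 4 basophil and mast cell markers (-0.35). Others were not. Of 10 conventional dendritic cell markers 3 were lower in KO A (median 0.03), as were 2 of 7 monocyte (0.02), 2 of 8 neutrophil (0.08) and 2 of 5 T cell markers (0.18). KO A was also the library low in Y-linked RNA. The part of any of these in the lower mature genes of KO A was not tested.

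**Figure D4:**
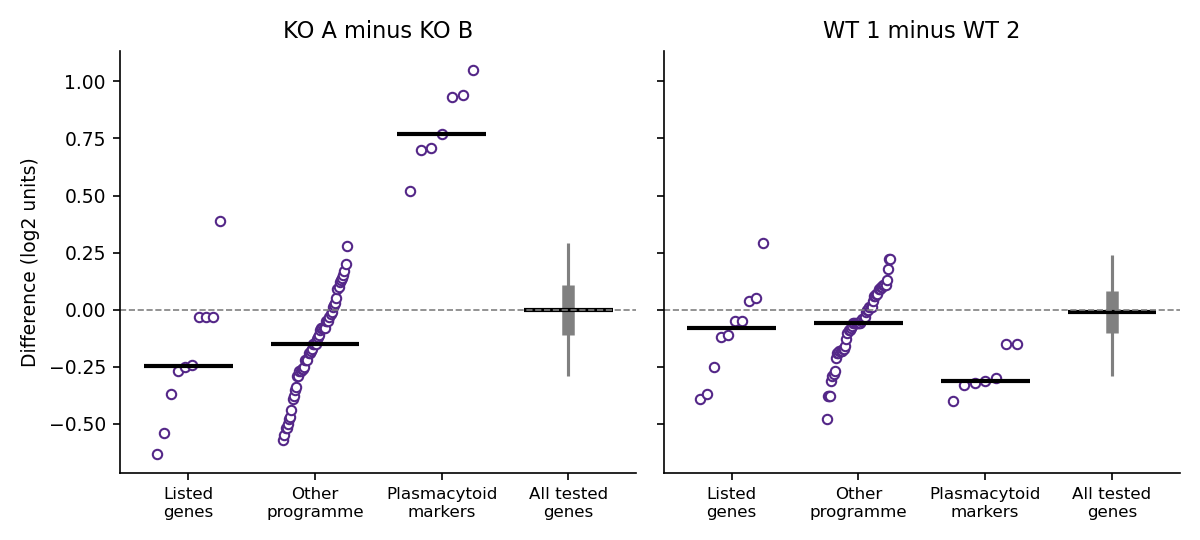
Difference in log2 units (y axis) between the KO libraries (left) and between the WT libraries (right) for the 10 listed genes, the other programme genes, the plasmacytoid markers and all tested genes. Points are genes, black bars medians, and for all tested genes the grey box spans the 25th to 75th percentile and the line the 5th to 95th. The 10 genes have a median of -0.24 for KO A minus KO B, and the plasmacytoid markers 0.77.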

How the data were processed

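RNA of sorted splenic dendritic cells was measured in 2 KO and 2 WT libraries, prepared with a strand-preserving low-input kit, per the labels' protocols. The tools DESeq2 and Salmon 1.10.1 and the genome GRCm39 are listed, without their roles, per the submitters' processing notes. Which annotation was used is not stated there. The deposited table holds log2 values. They were read as variance-stabilized because the same lowest value, 8.04, occurs in all 4 libraries, with low values compressed, and the transform was undone from that lowest value alone to give normalized counts.

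Genes whose mean lay 1 log2 unit or more over that lowest value were tested, KO against WT, in limma 3.58.1 (R 4.3.3) with an intensity trend, two-sided, with Benjamini-Hochberg adjustment over 11864 genes and a threshold of 0.05 (6.48 total degrees of freedom), checked on simulated data. Symbols came from a GENCODE M21 table (17289 of 17300 identifiers), exon lengths from GENCODE M21, of an older build used here for no coordinates of these data, and promoters from RefSeq on GRCm38.p6. The members and lists were chosen with earlier results of these data known. Named genes were all members, Ccr7, every family gene in the table but 1 that is not reported here, at most 4 called genes of each programme and immediate early list, and the 2 genes nearest in pattern to each called member. Siglece, Egr2, single cell type markers, Y-linked genes, Ccl22 and Cxcl16 were named besides, after their values were seen. So were genes with exons or words shared with a member and genes with a promoter match. Sources of 31-base words were all GENCODE M21 transcripts. Alternatives were the filter, quantile normalization, no trend, log2 of the count plus 1, and leaving out each library.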

Additional observations from a re-analysis of the deposited data

How the results depend on the processing

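With no filter, a filter of 2 log2 units, quantile normalization, no trend or log2 of the count plus 1, Il4i1 was the 1 listed gene called in limma in each, and 0 were called higher. Quantile normalization left 1 other programme gene called higher and 366 genes in all (56.5% of calls, against 67.8%). Leaving out each library gave 0 to 2 listed genes called lower, 0 to 6 other programme genes lower and 0 to 2 higher, and over all genes 0 to 200 lower and 0 to 620 higher. Without KO A limma called 0 genes (2508 at an unadjusted p under 0.05) and without KO B 3 (2448), with 0 listed or other programme genes in either; the cause was not tested, and each such fit has 3 libraries and assumes that the lone one varies like the others. Without WT 1, 5 other programme genes were lower and 0 higher. Signs turned when a library was left out for Cd83 (-0.17 to 0.07), Cd200 (-0.30 to 0.10) and Ccr7 (-0.13 to 0.39). Socs2 and Cd200 have no value under the stricter filter. Il4i1 differed by -0.93 to -0.67 when a library was left out (adjusted p 0.0123 to 0.0851 over all alternatives). No paired analysis was possible because no label pairs a KO library with a WT library. The KO columns also carry none of the replicate numbers of the titles. Without the depth in reads, the precision of low genes such as Cd200 and Socs2 cannot be stated.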
